A study of Mus musculus with 8 samples.

Results

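Calcium release and store-operated entry in the lacrimal gland (LG) was followed here through 10 genes of 24552 in the deposited table of counts. The genes are Itpr1, Itpr2, Itpr3, Stim1, Stim2, Orai1, Orai2, Orai3, Atp2a2 and Atp2b1, and each was taken as the row of the table that carries its symbol. All 10 were present in the table. They were chosen for their role in this pathway.

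Exorbital LGs of female C57BL/6J mice aged 10 to 11 months gave 8 RNA libraries. In 4 libraries the mice had been fed ad libitum (AL), and in the other 4 they had been on a 40% calorie restriction (CR) for 4 months that started at 6 to 7 months of age. All mice were of this inbred strain, sex and age, so the data say nothing of males or of other ages. The study fed its mice in more than one cohort, and the labels do not give the cohort of a library. The study counts 4 mice in each group, as many as there are libraries.

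Tear fluid is secreted by acinar cells when acetylcholine released by nerves activates Gq-coupled receptors and phospholipase C. The enzyme makes inositol trisphosphate (IP3), which opens IP3 receptors in the endoplasmic reticulum (ER) and lets stored calcium into the cytosol. STIM proteins sense the fall of calcium inside the ER and open ORAI channels in the plasma membrane, an influx called store-operated calcium entry. SERCA pumps return calcium to the ER, and plasma membrane calcium pumps (PMCA) expel it from the cell. The comparison of CR with AL asks whether the level of the transcripts for these steps differed between the diets in whole glands.

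The promoters of the family are shown because the genes share a feature there that the choice of genes did not use. The set of RefSeq promoters (GRCm38.p6) used here held a promoter for 8 of the 10 genes, 9 promoters in all, since Atp2b1 has a pair of starts, and the 250 bases upstream of each start were searched on both strands. Atp2a2 and Itpr1 had no entry in that set. The letters GGGCGG, the GC box, were in 9 of 9 of these windows and in 32.7% of all 32851 promoter windows. The letters CCAAT were in 4 of 9 against 33.8% of all, and the E-box CACGTG was in 2 of 9, those of Itpr3 and Orai2, against 6.02% of all. The TATA box TATAAA (12.4% of all) and the cyclic AMP response element TGACGTCA (1.55% of all) were in 0 of 9. The GC content ran from 57.2 to 80.8%, against a median of 52.4% over all windows. The share among windows of like GC content was not computed, and a match describes letters and not a bound site. The windows of both more counted IP3 receptor genes, of Orai1 and of Atp2a3, a SERCA gene outside the 10 that is described later, are given 5′ to 3′ on the strand of the gene, with the capitals marking GC, CCAAT and E-boxes on either strand and overlapping GC boxes joined. They lie at chr6:146502224-146502473 (minus strand, Itpr2), chr17:27057054-27057303 (plus strand, Itpr3), chr5:123014824-123015073 (plus strand, Orai1) and chr11:72960919-72961168 (plus strand, Atp2a3).
Itpr2: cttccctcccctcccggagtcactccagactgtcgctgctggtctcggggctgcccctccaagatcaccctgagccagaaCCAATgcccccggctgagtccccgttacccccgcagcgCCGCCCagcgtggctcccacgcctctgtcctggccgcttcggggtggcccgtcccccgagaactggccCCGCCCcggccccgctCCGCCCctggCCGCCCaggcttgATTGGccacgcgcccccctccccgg
Itpr3: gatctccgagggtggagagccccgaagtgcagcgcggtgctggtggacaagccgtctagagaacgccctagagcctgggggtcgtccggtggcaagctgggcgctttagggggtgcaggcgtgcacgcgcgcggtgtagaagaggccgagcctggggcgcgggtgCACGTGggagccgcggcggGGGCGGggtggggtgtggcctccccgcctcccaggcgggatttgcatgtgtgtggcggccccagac
Orai1: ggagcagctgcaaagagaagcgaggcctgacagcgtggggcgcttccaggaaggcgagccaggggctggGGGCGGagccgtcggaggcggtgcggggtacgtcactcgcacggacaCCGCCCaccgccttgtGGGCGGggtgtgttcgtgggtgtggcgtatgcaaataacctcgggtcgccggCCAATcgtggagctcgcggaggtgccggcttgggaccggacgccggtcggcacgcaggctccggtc
Atp2a3: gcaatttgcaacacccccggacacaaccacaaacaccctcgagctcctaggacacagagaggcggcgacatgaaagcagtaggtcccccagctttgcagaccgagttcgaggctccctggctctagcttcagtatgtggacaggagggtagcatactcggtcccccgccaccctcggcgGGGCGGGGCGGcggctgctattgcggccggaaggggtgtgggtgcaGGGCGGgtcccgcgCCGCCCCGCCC

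The LG was checked against marker genes before the members were read. Lacrimal gland markers summed to between 247000 and 319000 CPM in AL and between 152000 and 259000 CPM in CR, led by the odorant binding proteins Obp1a and Obp1b, where CPM (counts scaled to a common library size) was set with relative log expression (RLE) factors. Parotid gland markers, led by Bpifa2 and Amy1, had sums of 23500, 12700, 9850 and 237 CPM across AL replicates 1 to 4 and of 211000, 230000, 184000 and 17900 CPM across CR replicates 1 to 4, and 3 of the 6 were called higher in CR. Their mean log2 level is called the parotid marker score. Leukocyte markers summed to between 63.4 and 231 CPM in AL and between 38.9 and 49.4 CPM in CR, with 0 of the 5 tested called by edgeR (all 5 at an unadjusted p under 0.05), 0 by limma voom (fitted with sample quality weights throughout) and 6 by DESeq2, which also fitted less counted genes. Among the lacrimal markers 3 of 13 were called by edgeR (8 by DESeq2 and 8 by limma voom): the secretoglobins Scgb1b7, at 152 to 1370 CPM in AL and 0 to 13.1 CPM in CR, and Scgb2b7, at 111 to 1200 and 0 to 8.77 CPM, were lower in CR, and Mup5, at 0.558 to 28.4 and 374 to 4060 CPM, was higher. Car6, also on this list and not called by edgeR, was at 11800 to 28500 CPM in AL and 36500 to 82800 CPM in CR. Mup5, Car6 and the parotid sums were each lowest in replicate 4 of both diets. The part of parotid transcripts in Mup5, Car6 and the lacrimal sums was not tested. The collagens Col1a1, at 12.6 to 24.2 CPM in AL and 2.55 to 3.94 CPM in CR, and Col3a1, at 25.9 to 45 and 4.61 to 7 CPM, were the 2 called of 6 fibroblast markers, both lower, and Fabp4, at 2.23 to 7.26 and 11.2 to 31 CPM, was the adipocyte marker called, and higher. In their sums, fibroblast markers spanned 158 to 285 and 134 to 202 CPM, myoepithelial and smooth muscle markers 86.3 to 132 and 48.1 to 86.6 CPM, endothelial markers 9.89 to 13.5 and 13.2 to 17 CPM, and adipocyte markers 4.37 to 11 and 17.5 to 55.2 CPM, AL first in each. Skeletal muscle markers reached 64.8 CPM in CR replicate 2 and 46.3 CPM in CR replicate 4, and lay between 1.1 and 14.6 CPM in the other 6 libraries. Library totals ran from 12051918 to 22156545 counts in AL and from 13720118 to 19310366 counts in CR, and a floor of 3 counts was worth 0.152 to 0.231 CPM.

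None of the 10 genes was called as differentially expressed between CR and AL. Of the 9 that passed the count filter, 0 reached an adjusted p under 0.05 with at least a 1.5-fold change in the quasi-likelihood F test of edgeR, adjusted by Benjamini-Hochberg, while 222 of 11211 genes (1.98%) did, 134 of them higher in CR (1.2%) and 88 lower (0.785%). An unadjusted p under 0.05 was reached by 1 of the 9, Atp2a2, against 16.7% of all genes, and DESeq2 and limma voom also called 0 members. In limma voom with sample quality weights 2 were under 0.05, Itpr3 (adjusted p = 0.223, limma) beside Atp2a2, and without AL replicate 3 it was Itpr3 (adjusted p = 0.307, edgeR) and not Atp2a2. The fitted log2 fold change was above 0 for 7 of the 9 and below 0 for Itpr1 and Orai1, with a median of 0.17, beside a median of 0.01 over all genes tested, of which 51.1% were above 0. All 9 fitted changes were under 1.5-fold, as were those of 75.5% of all genes, but with the parotid marker score in the model Itpr1 was at -1.39 and Orai1 at -0.94 on the log2 scale, neither called. The 95% interval lay within a 2-fold change either way for 8 of the 9, all but Itpr1, and within 1.5-fold for 1, Atp2b1. In whole glands, fewer cells of a type and less RNA per cell cannot be told apart. Nor can the diet and the parotid transcripts, as the parotid marker score did not overlap between the diets.

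**Figure D1:**
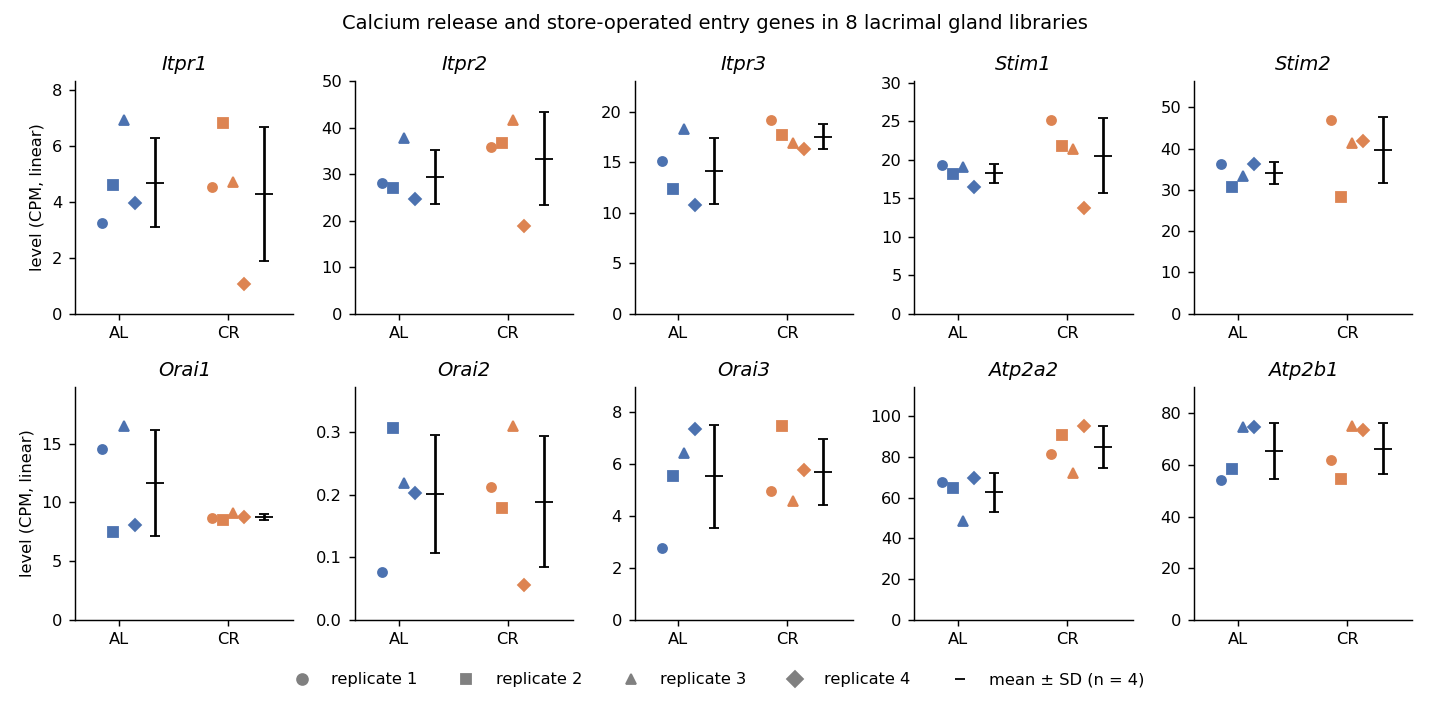
Level of each of the 10 genes in CPM on a linear axis from 0, with AL and CR on the x axis, a symbol for each replicate and the mean ± SD (n = 4) beside each group. In the panel of Atp2a2 the 4 CR libraries, from 72.1 to 95.3 CPM, lie above the 4 AL libraries, from 48.7 to 69.8 CPM, and in the other 9 panels the groups overlap.

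The IP3 receptors are the release channels of the ER. Itpr2 (chr6:146108299-146502223, minus strand, GRCm38), the receptor with the highest affinity for IP3, was counted most, with 28, 27, 37.8 and 24.7 CPM across AL replicates 1 to 4 and 35.9, 36.8, 41.7 and 18.8 CPM across CR replicates 1 to 4. Its CR libraries held both the highest value and the lowest, and the groups overlapped. The mean was 29.4 ± 5.80 CPM (SD, n = 4) in AL and 33.3 ± 10.0 CPM (SD, n = 4) in CR. This gave a log2 fold change of 0.18 (SE 0.24, 95% interval -0.34 to 0.71, adjusted p = 0.783, edgeR).

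Itpr3 (chr17:27057304-27122223, plus strand), which exocrine acinar cells carry with Itpr2 at the apical pole, was at 15.1, 12.3, 18.3 and 10.8 CPM in AL and at 19.2, 17.7, 16.9 and 16.3 CPM in CR. The 4 CR libraries lay close together, and 1 AL library, replicate 3, was above 3 of them. Itpr3 had a log2 fold change of 0.32 (SE 0.20, 95% interval -0.11 to 0.74, adjusted p = 0.468, edgeR). A noncoding gene on the other strand, Itpr3os, overlaps its exons, and the strand setting of the counting was not given in the sources used here. Mir7677 overlaps exons of Itpr3 on the same strand.

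Itpr1 (chr6:108213096-108551109, plus strand), the main receptor of neurons, was the least counted of the 3, at 3.24, 4.60, 6.92 and 3.96 CPM in AL and at 4.53, 6.81, 4.71 and 1.06 CPM in CR. CR replicate 4, with 19 counts, was the lowest library, and the groups overlapped. Its log2 fold change of -0.13 (SE 0.46, 95% interval -1.12 to 0.86, adjusted p = 0.933, edgeR) had the widest interval of the 9. Noncoding genes on the other strand, Gm44040 and Gm44101, overlap its exons. Without CR replicate 4 the change was 0.20, and without AL replicate 3 it was 0.11.

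As the protocol reads the 3′ end of each transcript, counts were compared between genes without division by gene length, although priming and the annotation of 3′ ends can differ from gene to gene. The IP3 receptors kept the order Itpr2, Itpr3, Itpr1 in all 8 libraries. Itpr2 took 61.2 ± 1.21% of the family's counts in AL and 59.5 ± 5.74% in CR (SD, n = 4), Itpr3 took 29.2 ± 2.37% and 33.2 ± 8.27%, and Itpr1 took 9.62 ± 1.80% and 7.26 ± 3.35%. The shares of the groups overlapped for each gene. CR replicate 4 stood apart from the other CR libraries in this family, with Itpr3 at 45.2% (95% Wilson interval 41.4 to 49) and Itpr1 at 2.92% (1.88 to 4.51). It stood apart as a whole library too. Between raw counts of pairs of libraries, its chi-square per degree of freedom was 80 to 131 with AL libraries and 556 to 683 with the other CR libraries. The study describes a CR sample of intermediate pattern, a possible outlier, without giving its number. The Wilson intervals, and the floors given above, cover counting error within a library only. The reads carry no molecular identifiers that would mark separate molecules, so copies of the same molecule count as separate reads and the intervals may be too narrow. Summed over the 3 genes, the family was at 48.2 ± 10.3 CPM in AL and 55.1 ± 12.7 CPM in CR (SD, n = 4).

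**Figure D2:**
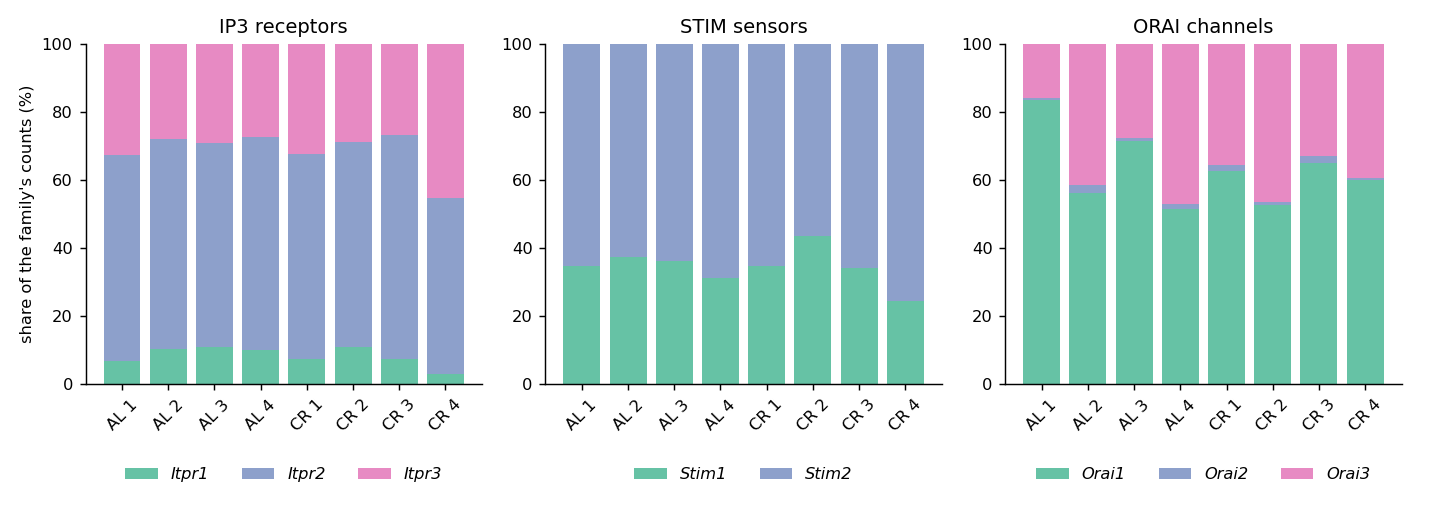
Share of each gene in the counts of its family, in percent, for the 8 libraries on the x axis, with stacked bars for the IP3 receptors, the STIM sensors and the ORAI channels. Itpr2 and Stim2 hold the largest share of their families in every library, and in CR replicate 4 the share of Itpr3 is 45.2%.

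The STIM proteins are the calcium sensors of the ER membrane. Stim1 (chr7:102267806-102437319, plus strand), the main activator of ORAI channels, was at 19.3, 18.2, 19.0 and 16.5 CPM in AL and at 25.2, 21.8, 21.4 and 13.7 CPM in CR. CR replicates 1 to 3 were above every AL library and CR replicate 4 was below every one. Stim1 had a log2 fold change of 0.17 (SE 0.20, 95% interval -0.26 to 0.60, adjusted p = 0.749, edgeR), and without CR replicate 4 it was 0.32 (adjusted p = 0.338, edgeR). Stim2 (chr5:53998499-54121057, plus strand), which responds to smaller losses of ER calcium, was at 36.3, 30.7, 33.4 and 36.3 CPM in AL and at 47.0, 28.3, 41.4 and 41.8 CPM in CR. Its highest and its lowest value were both in CR libraries. Stim2 had a log2 fold change of 0.21 (SE 0.18, 95% interval -0.18 to 0.61, adjusted p = 0.618, edgeR). Stim2 exceeded Stim1 in all 8 libraries and took 65.1 ± 2.64% of the counts of both in AL and 65.7 ± 7.71% in CR (SD, n = 4).

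The ORAI proteins form the pore of the store-operated channel. Orai1 (chr5:123015074-123030456, plus strand), the canonical store-operated channel, was at 14.5, 7.48, 16.5 and 8.07 CPM in AL and at 8.70, 8.47, 9.10 and 8.77 CPM in CR. AL replicates 1 and 3 lay above the CR libraries and AL replicates 2 and 4 below them, so the CR values fell inside the AL range. For Orai1 the log2 fold change was -0.41 (SE 0.27, 95% interval -0.99 to 0.17, adjusted p = 0.493, edgeR). The coefficient of variation was 39.1% in AL and 2.99% in CR, and this difference in spread was not tested. Gm2479 overlaps exons of Orai1 on the other strand.

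Orai3 (chr7:127769815-127775150, plus strand), a subunit found in mammals alone, was at 2.77, 5.52, 6.41 and 7.36 CPM in AL and at 4.95, 7.46, 4.58 and 5.78 CPM in CR. The groups overlapped, with CR replicate 2 the highest library and AL replicate 1 the lowest, and the log2 fold change was 0.04 (SE 0.31, 95% interval -0.64 to 0.72, adjusted p = 0.972, edgeR). Orai2 (chr5:136147459-136170713, minus strand), a subunit that can dampen channels formed with Orai1, had between 1 and 5 counts in a library, 25 in all, and did not pass the count filter. It was at 0.201 ± 0.0946 CPM in AL and 0.189 ± 0.105 CPM in CR (SD, n = 4), about the floor of 3 counts, and the difference of -0.0126 CPM gave p = 0.771 in a two-sided exact permutation test, in which 70 arrangements allow no p under 0.0286. Orai1 took 65.7 ± 14.6% of the counts of the 3 channels in AL and 60.1 ± 5.42% in CR, and Orai3 took 33.1 ± 14.0% and 38.6 ± 5.86% (SD, n = 4). The Orai1 share ran from 51.6 to 83.6% among the AL libraries, so the mix of channels differed more within AL than the group means did.

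The pumps were the most counted of the 10 genes. Atp2a2 (chr5:122453513-122502225, minus strand) encodes SERCA2, the pump that refills the ER in most cells, and was at 67.6, 65, 48.7 and 69.8 CPM in AL and at 81.3, 90.7, 72.1 and 95.3 CPM in CR. Every CR library was above every AL library, a pattern that 4.58% of all genes tested had in this direction and 5.2% in the other. The mean was 62.8 ± 9.58 CPM in AL and 84.8 ± 10.3 CPM in CR (SD, n = 4). The fitted log2 fold change was 0.43 (SE 0.17, 95% interval 0.06 to 0.81), or 1.35-fold with an interval of 1.04 to 1.76, and did not pass the test (unadjusted p = 0.0279, adjusted p = 0.223, edgeR). Atp2a2 has 2 coding transcripts with different 3′ ends, and the counts per gene do not separate them. Gm43361 overlaps its exons on the other strand.

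CR replicates 2 and 4, the libraries with the highest Atp2a2, were also those with the most skeletal muscle transcripts, a tissue rich in SERCA. Without both, the log2 fold change of Atp2a2 was 0.29 (unadjusted p = 0.178, adjusted p = 0.497, edgeR), an alternative chosen after the values were seen. The 6 skeletal muscle markers tested were above 0 in log2 fold change, with 0 called by edgeR, DESeq2 or limma voom and 2 at an unadjusted p under 0.05 in edgeR, and 4 of the 7 listed were at 0 in some library. Atp2a1, the SERCA gene of fast skeletal muscle, was at 7.88 and 4.05 CPM in these 2 libraries and at 0 to 1.01 CPM in the other 6, and was named after its values were seen. The part of muscle transcripts in the level of Atp2a2 was not tested. The unadjusted p of Atp2a2 was above 0.05 when AL replicate 2 (0.0526), AL replicate 3 (0.0891), CR replicate 2 (0.0567) or CR replicate 4 (0.0617) was left out in the edgeR fit across all genes. With the replicate number as a block the unadjusted p was 0.00864 (adjusted p = 0.0848, edgeR).

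Atp2b1 (chr10:98914406-99026143, plus strand), the PMCA pump found in nearly all cells, was at 54.1, 58.4, 74.8 and 74.7 CPM in AL and at 61.9, 54.4, 75.1 and 73.5 CPM in CR. The groups covered almost the same range. Atp2b1 had a log2 fold change of 0.02 (SE 0.18, 95% interval -0.38 to 0.41, adjusted p = 0.982, edgeR). Of the 75-base windows in its last 600 bases, 1.57% were shared with Gm29808, so a small part of its reads could be assigned to either gene, while for the other 9 genes no such window was shared.

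In the order of mean CPM in AL, the 10 genes ran Atp2b1, Atp2a2, Stim2, Itpr2, Stim1, Itpr3, Orai1, Orai3, Itpr1 and Orai2. The AL ranges of the neighbours Atp2b1 and Atp2a2, Stim2 and Itpr2, Stim1 and Itpr3, Itpr3 and Orai1, and Orai3 and Itpr1 overlapped, and those of the other neighbours did not. In CR the order was Atp2a2, Atp2b1, Stim2, Itpr2, Stim1, Itpr3, Orai1, Orai3, Itpr1 and Orai2, and there Itpr2 and Stim1 overlapped too while Itpr3 and Orai1 did not. The genes whose log2 CPM followed each of the most counted members most closely, among 4239 genes of at least 10 CPM, were Mia2 (r = 0.982), Nsmce4a (0.974) and Kcnip3 (0.954) for Atp2a2, and Rer1 (0.898), Bglap3 (0.877) and Acin1 (0.865) for Atp2b1. For Stim2 they were Chd8 (0.963), Tnrc18 (0.951) and Zmpste24 (0.934), and for Itpr2 they were Lyrm2 (0.975), Hspb8 (0.947) and Map1lc3b (0.935). These are Pearson correlations over 8 libraries of 2 diets, which share depth and diet, and are given as a description.

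**Figure D3:**
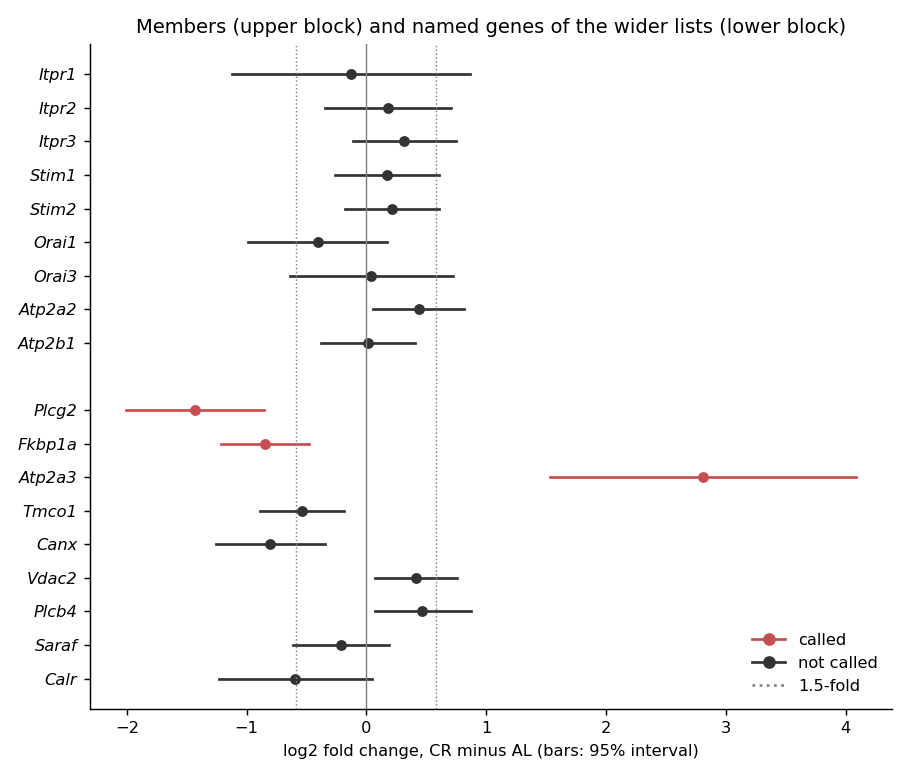
Fitted log2 fold change, CR minus AL, with its 95% interval on the x axis for the 9 members tested in the upper block and for 9 genes of the wider pathway in the lower block, with the called genes in red and dotted lines at 1.5-fold. Atp2a2 is the member whose interval, 0.06 to 0.81, leaves out 0, and the called genes are Plcg2, Fkbp1a and Atp2a3.

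The rest of the pathway was read from 6 lists of 105 symbols, of which 100 were in the table and 72 were tested. Of the 72, 3 were called (4.17%, against 1.98% of all genes), Atp2a3 higher and Plcg2 and Fkbp1a lower in CR, and 43 had a log2 fold change above 0 and 29 below, with a median of 0.12. An unadjusted p under 0.05 was reached by 19 of the 72 (26.4%, against 16.7% of all genes). The groups did not overlap for 3 of the 72 higher in CR and 7 lower, beside 4.58% and 5.2% of all genes tested. With the replicate number as a block, the edgeR fit called 7 of the lists' genes, 0 of the 10 members and 700 genes in all. Over all genes DESeq2 called 705 and limma voom 397, against 222 by edgeR, which bears on the calls per list given below.

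Atp2a3 (chr11:72961169-72993044, plus strand), SERCA3, a pump of epithelial and blood cells, rose in CR from 12, 10.3, 12.3 and 3.45 CPM in AL replicates 1 to 4 to 124, 67.8, 63.5 and 11 CPM in CR replicates 1 to 4. CR replicates 1 to 3 were above every AL library, while CR replicate 4 was within the AL range. Its log2 fold change was 2.81 (SE 0.59, 95% interval 1.54 to 4.09, adjusted p = 0.0335, edgeR). AL replicate 4 and CR replicate 4, the lowest of their groups in Atp2a3, were also the lowest in summed parotid gland markers. When the parotid marker score was put into the model, Atp2a3 came to 0.18 on the log2 scale (adjusted p = 0.97, edgeR). The score did not overlap between the diets, running from 2.42 to 7.07 in AL and from 9.15 to 12.94 in CR. The diet and the parotid transcripts therefore cannot be told apart, for this gene or for any other, the members included. The call was lost without any of AL replicates 1 to 4 or CR replicates 1, 2 and 3 (adjusted p 0.0571 to 0.109, edgeR), where the log2 fold change was 2.33 to 2.96, and kept without CR replicate 4 (log2 fold change 3.17, adjusted p = 0.000556, edgeR).

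Set beside Atp2a2, Atp2a3 took a larger share of the counts of both SERCA genes in 3 of the 4 CR libraries than in any AL library. Atp2a3 made up 15.1% (95% Wilson interval 13 to 17.4), 13.7% (11.9 to 15.7), 20.2% (17.6 to 23) and 4.71% (3.73 to 5.93) of the counts of both genes in AL replicates 1 to 4. In CR replicates 1 to 4 it made up 60.4% (58.6 to 62.1), 42.8% (40.9 to 44.7), 46.8% (44.7 to 48.9) and 10.3% (9.06 to 11.8). CR replicate 4 lay among the AL libraries, and the means were 13.4 ± 6.44% in AL and 40.1 ± 21.2% in CR (SD, n = 4). Their sum was 79.6, 75.3, 61 and 73.2 CPM in AL and 205, 158, 136 and 106 CPM in CR. The sum did not overlap between the groups, and as it was formed after the values were seen it was not tested.

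**Figure D4:**
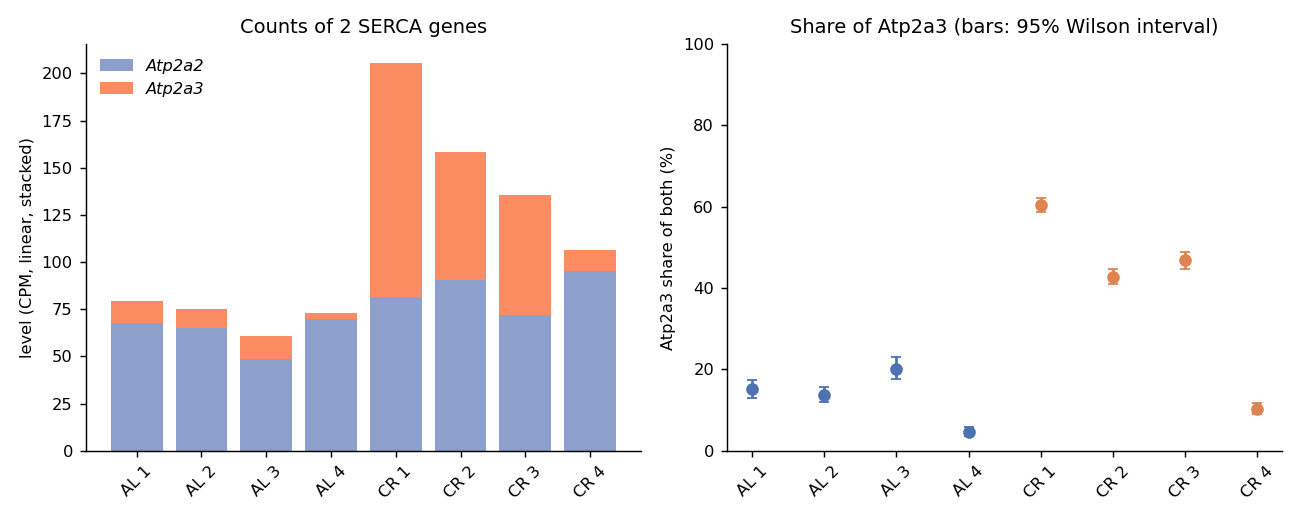
Left, CPM of Atp2a2 and Atp2a3 stacked on a linear axis from 0 for each library, and right, the share of Atp2a3 in the counts of both genes, in percent with 95% Wilson intervals, for the same libraries. In CR replicates 1 to 3 the Atp2a3 share is between 42.8 and 60.4%, and in CR replicate 4 it is 10.3%, within the AL range of 4.71 to 20.2%.

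Upstream of the IP3 receptors, the list of Gq proteins, phospholipases C and IP3 breakdown had 10 of its 16 tested genes above 0 and 6 below, with a median of 0.06, 2 at an unadjusted p under 0.05 and 1 called by each of edgeR, DESeq2 and limma voom. The gene called by edgeR, Plcg2 (chr8:117498291-117635142, plus strand), is the phospholipase C of B cells and myeloid cells. It fell from 6.86, 9.51, 9.55 and 7.41 CPM in AL to 2.05, 3.14, 3.41 and 3.72 CPM in CR, with every CR library below every AL library. The log2 fold change was -1.43 (SE 0.26, 95% interval -2.00 to -0.85, adjusted p = 0.0208, edgeR). Summed leukocyte markers were also lower in every CR library than in any AL library, at 38.9 to 49.4 CPM against 63.4 to 231 CPM, with 5 of the 11 listed at 0 in some library, and their part in the level of Plcg2 was not tested. The call was lost without AL replicate 2, AL replicate 3, CR replicate 2 or CR replicate 3 (adjusted p 0.0594 to 0.0835, edgeR), where the log2 fold change stayed between -1.48 and -1.36, and also with the parotid marker score in the model (log2 fold change -1.23, adjusted p = 0.534, edgeR). The model with that score, which did not overlap between the diets, called 4 genes in all.

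Plcb4 was the most counted gene of that list, a phospholipase C activated by Gq proteins, at 115, 125, 102 and 112 CPM in AL and 197, 142, 165 and 124 CPM in CR. Only CR replicate 4 lay within the AL range, and the log2 fold change of 0.47 (SE 0.18) did not pass the test (adjusted p = 0.214, edgeR). Gnaq, the Gq protein itself, had a log2 fold change of 0.04 (95% interval -0.37 to 0.45). Gna11, its close relative, was at 25.9 to 31.9 CPM in AL and 32 to 38.3 CPM in CR, without overlap, and at 0.27 on the log2 scale (adjusted p = 0.419, edgeR). Gnaq and Gna11 were named after their values were seen.

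Of the partners of IP3 receptors, 4 of 13 tested were above 0 and 9 below, with a median log2 fold change of -0.43. An unadjusted p under 0.05 was reached by 6 of the 13 (46.2%, against 16.7% of all genes), 5 of them lower, and 1 was called by edgeR, 2 by DESeq2 and 2 by limma voom. Fkbp1a (chr2:151542483-151561692, plus strand), the immunophilin FKBP12 that binds calcium release channels, fell from 62.6, 50.1, 68.4 and 52.1 CPM in AL to 36.6, 30.2, 34.1 and 28.8 CPM in CR. Every CR library was below every AL library, with a log2 fold change of -0.85 (SE 0.17, 95% interval -1.21 to -0.48, adjusted p = 0.0291, edgeR). The call was lost without AL replicate 1, 2 or 3 or CR replicate 2 or 3 (adjusted p 0.0678 to 0.11, edgeR), where the log2 fold change was -0.91 to -0.77, and also without CR replicates 2 and 4 together (log2 fold change -0.72, adjusted p = 0.0816, edgeR). It was lost with the parotid marker score in the model too (log2 fold change -1.09, adjusted p = 0.465, edgeR), where the fold change was larger. That model called 4 genes in all, and its score did not overlap between the diets.

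No partner of STIM and ORAI passed the test. Of 17 listed symbols 9 were tested, 6 above 0 and 3 below, 0 with an unadjusted p under 0.05 in edgeR and 0 called by edgeR, DESeq2 or limma voom, with a median of 0.15. Saraf, which slows store-operated entry, was the most counted, at 243, 211, 181 and 191 CPM in AL and 205, 146, 175 and 188 CPM in CR, with a log2 fold change of -0.21 (SE 0.18, adjusted p = 0.636, edgeR). The groups overlapped.

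Among 11 tested genes of other pumps, exchangers and channels, 9 were above 0 and 2 below, with a median of 0.56. An unadjusted p under 0.05 was reached by 5 of the 11 (45.5%, against 16.7% of all genes), 4 of them higher, and 1 was called by edgeR, Atp2a3, 3 by DESeq2 and 2 by limma voom. Tmco1, a channel that lets calcium leak from an overfilled ER, was at 173, 146, 139 and 140 CPM in AL and 110, 110, 102 and 90.7 CPM in CR. The groups did not overlap, and the log2 fold change of -0.54 (SE 0.16) did not pass the test (adjusted p = 0.112, edgeR).

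The calcium-binding proteins of the ER and Golgi lumen had 7 of 12 tested above 0 and 5 below, with a median of 0.05. Of these, 0 were called by edgeR (3 at an unadjusted p under 0.05), 1 by limma voom and 2 by DESeq2. Canx, the membrane chaperone calnexin, was at 331, 245, 287 and 247 CPM in AL and 182, 114, 154 and 186 CPM in CR, without overlap, with a log2 fold change of -0.80 (SE 0.21, adjusted p = 0.0708, edgeR). Canx was called under 4 of the 19 alternatives. With the replicate number as a block it was -0.82 (adjusted p = 0.0177, edgeR). The others were DESeq2 (adjusted p = 0.00536), limma voom (adjusted p = 0.0249) and the edgeR fit without CR replicate 4 (adjusted p = 0.0312). Calr, calreticulin, the main calcium buffer of the ER, was at 673, 447, 580 and 471 CPM in AL and 435, 188, 324 and 493 CPM in CR, where CR replicate 4 lay within the AL range, and had a log2 fold change of -0.59 (adjusted p = 0.337, edgeR). Mitochondrial uptake genes had 7 of 11 above 0 and 4 below, with a median of 0.16, and 0 were called by edgeR (3 at an unadjusted p under 0.05), DESeq2 or limma voom. Vdac2, a channel of the outer mitochondrial membrane, was at 43.4, 44.3, 47.7 and 57.3 CPM in AL and 60.1, 66.4, 68.2 and 62 CPM in CR, without overlap, with a log2 fold change of 0.41 (adjusted p = 0.196, edgeR).

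**Figure D5:**
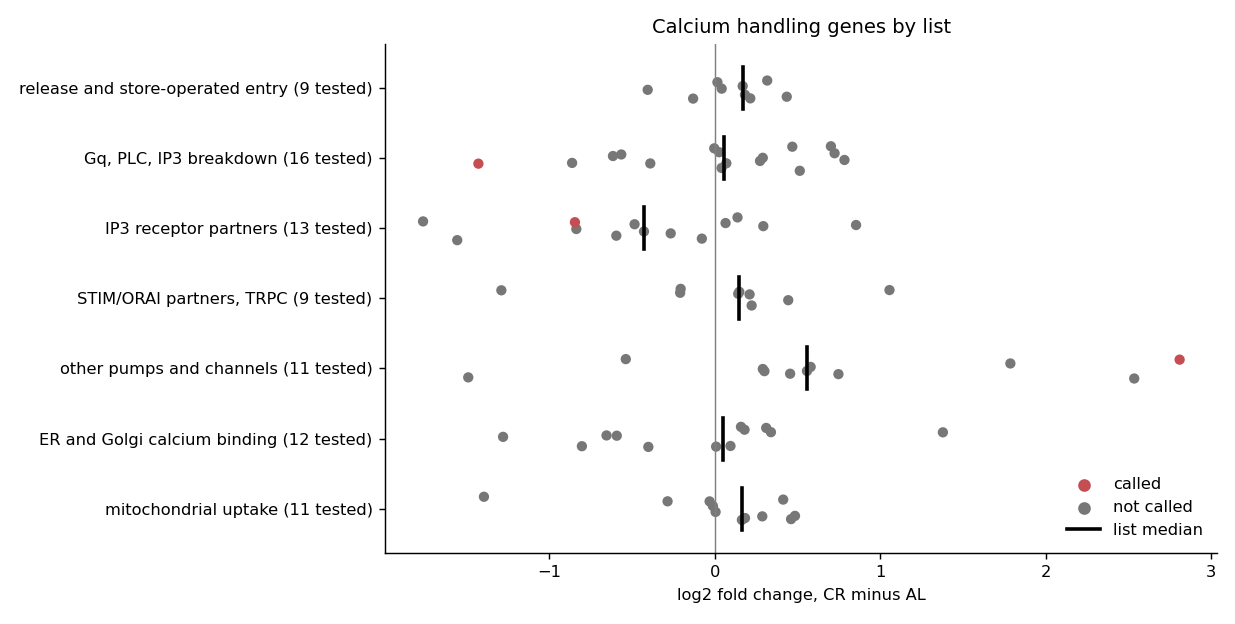
Fitted log2 fold change, CR minus AL, of each tested gene on the x axis, in a row for the 9 members and a row for each of the 6 wider lists, with called genes in red and a black bar at the list's median. The members lie between -0.41 and 0.43, and the list medians run from -0.43 for the IP3 receptor partners to 0.56 for the other pumps and channels.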

How the data were processed

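RNA of 4 AL and 4 CR LGs was prepared with the QuantSeq 3′ FWD kit and sequenced as single reads of 75 bases. The authors trimmed the reads with cutadapt, checked them with FastQC, aligned them to mm10 with STAR and deposited raw counts per gene from HTSeq. Versions, annotation and the strand setting were not given in the sources used here. The authors also deposited log2 values, which matched the counts after DESeq2's RLE scaling to within 0.000124 and were not used further.

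Of 24557 listed genes, 5 repeated symbols were dropped, and 11211 passed filterByExpr. They were fitted together in edgeR 4.0.16 (R 4.3.3) with RLE factors and a design of diet alone, by the quasi-likelihood F test, and p-values were adjusted over all of them (Benjamini-Hochberg). Called genes had an adjusted p under 0.05 and changed at least 1.5-fold. The biological coefficient of variation was 34.7%. Intervals cover 95%. Orai2, under the filter, was compared by an exact permutation test. The steps were tested on simulated data.

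The counts of calls and the changes of the 9 members and of 9 genes of the wider lists were recomputed with DESeq2 1.42.0, limma 3.58.1 voom with sample quality weights, TMM or upper-quartile factors, other count filters, no fold threshold, a replicate block, leaving out each library, a covariate for parotid transcripts (mean log2 CPM over 6 markers, pseudocount 1), the 50 most counted genes left out, and, added after seeing the data, CR replicates 2 and 4 left out. Orai2 was recomputed under those that change its scaling or libraries. Deviations from the group means in libraries of both diets with the same number had correlations of 0.371, 0.243, 0.38 and 0.67 for numbers 1 to 4. For AL replicates 1, 2 and 4 the CR library with the highest correlation had the same number, and for AL replicate 3 it had another. No label says what a number marks. No pair of libraries was a duplicate.

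The members, lists and tests were chosen with earlier results of these data known. Besides the members, genes were named if called, if without overlap at an unadjusted p under 0.05, or if the most counted of their list. A gene that this rule selects is not reported here. The 2 most counted markers of each marker list are those of the lacrimal (Obp1a, Obp1b), parotid (Bpifa2, Amy1), leukocyte (Cd74, Jchain), fibroblast (Dcn, Col1a2), endothelial (Kdr, Pecam1), myoepithelial (Acta2, Myh11), muscle (Acta1, Myh4) and adipocyte (Fabp4, Adipoq) lists. Positions come from GENCODE vM21 on GRCm38.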

Additional observations from a re-analysis of the deposited data

How the results depend on the processing

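The number of members called was 0 under all 19 alternatives. Atp2a2 stayed above 0 under each (0.29 to 0.53, adjusted p 0.0848 to 0.662, edgeR, DESeq2 or limma), Stim2 stayed above 0 and Orai1 below. The number of genes called, 222, was 705 with DESeq2, 397 with limma voom and sample quality weights together, 436 with no filter on low counts, 700 with the replicate block, 4 with the parotid covariate and 449 without CR replicates 2 and 4. Leaving out 1 library gave 61 to 700: 78, 61, 87 and 166 without AL replicates 1 to 4 and 121, 65, 64 and 700 without CR replicates 1 to 4. The number of wider pathway genes called, 3, was 8 with DESeq2, 6 with limma voom and sample quality weights together, 7 with the replicate block, 0 with the covariate, 6 without CR replicates 2 and 4, and 0 to 8 without 1 library, being 0 without AL replicate 2 or 3 or CR replicate 2 or 3, 1 without AL replicate 1 and 8 without CR replicate 4. Among the 9 members and 9 genes of the wider lists fitted again, the block changed the call of Canx and of no other.

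Directions that turned belong to changes that were not called. The log2 fold change of Atp2b1 was -0.02 with upper-quartile factors and -0.06 to 0.11 without 1 library. With the parotid covariate, Itpr2 was at -0.37, Itpr3 at -0.17 and Stim1 at -0.35, Itpr1 at -1.39 and Orai1 at -0.94 kept their sign, as did Atp2b1 at 0.58, Atp2a2 at 0.53, Stim2 at 0.49 and Orai3 at 0.46, with 0 of the 9 called. Orai3 ran from -0.17 to 0.21 without 1 library and was at -0.22 without CR replicates 2 and 4, and Itpr1 ran from -0.44 to 0.20 without 1 library. The Orai2 difference ran from -0.0542 to 0.0321 CPM without 1 library and was 0.0603 CPM without CR replicates 2 and 4. The cause was not tested. Orai2 had 1 to 5 counts in a library, where counting error alone is large.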
